A study of Homo sapiens with 2 samples.

Results

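The miRNA described here is miR-210, given in the deposited files as 2 of 2588 mature miRNA names, hsa-miR-210-3p and hsa-miR-210-5p, the products of the 2 arms of 1 hairpin. They were chosen by name, with earlier results of these data known. The libraries hold miRNAs that stayed on an amylose resin after lysate of MDA231 cells had been passed over it, and there was 1 library with bait and 1 without. MDA231, also written MDA-MB-231, is a triple-negative breast cancer cell line, labelled parental in both libraries. In the bait library the resin carried lncRNA MACC1-AS1-MS2, made in vitro with T7 RNA polymerase and held through MBP-MCP, in which the coat protein of phage MS2 is joined to maltose-binding protein. In the no-bait library the RNA substrate is given as None. The question put to the libraries is which miRNAs the tagged RNA retains. No RNA of any kind was on the control resin, so the parts that MACC1-AS1, the MS2 tag and any RNA on the resin have in a ratio cannot be told apart. The labels name no hypoxic treatment; cells were grown in DMEM with serum and CO2.

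miR-210 is known as the miRNA most regularly induced by low oxygen. Hypoxia-inducible factor activates its transcription, and the 3p arm is the strand usually loaded into Argonaute. Among its known targets are ISCU, which builds the iron-sulfur clusters of mitochondrial respiration, and EFNA3, an ephrin linked to vessel formation. In breast tumours its level has been read as a sign of hypoxia.

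The hairpin gene MIR210 (ENSG00000199038.1) lies on the minus strand at chr11:568089-568198 (GRCh38). In all 4 transcripts that GENCODE version 29 gives for the long non-coding RNA gene MIR210HG, it lies in an intron. The hairpin of 110 bases is shown because the report turns on its arms. Its sequence, and those of the arms, are RefSeq's on GRCh38.p14, written 5′ to 3′. The capitals in the hairpin mark the 5p arm (bases 28 to 49) and the 3p arm (bases 66 to 87). In the single arms they mark the seed, bases 2 to 8, with which a miRNA mainly recognises its targets.
MIR210 hairpin: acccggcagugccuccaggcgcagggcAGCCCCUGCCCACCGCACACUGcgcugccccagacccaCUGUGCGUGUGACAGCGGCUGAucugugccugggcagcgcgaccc
miR-210-3p: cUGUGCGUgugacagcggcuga
miR-210-5p: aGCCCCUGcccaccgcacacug

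The 3p arm lies at chr11:568112-568133 and the 5p arm at chr11:568150-568171. In the minimum free energy fold of the hairpin (-59.5 kcal/mol), 16 base pairs joined the arms, and 16 bases lay between them. The sequences are rich in G and C, with 63.6% in the 3p arm and 72.7% in the 5p arm. No other of the 2370 mature names with a RefSeq sequence had the seed of either arm. The nearest mature sequence differed from the 3p arm by 8 edits (substitutions, insertions or deletions) and from the 5p arm by 7. Near-identical paralogs, whose reads can be divided in unknown ways, were thus not found for miR-210.

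The libraries held 1047269 counts with bait and 269716 without, a 3.88-fold difference in depth. All differences compare these libraries, have no replicate check and carry no p-value of their own. Every interval is an exact 95% binomial interval that covers counting error only, since each group held 1 library. Reads without molecular identifiers are not independent molecules, so the intervals may be too narrow even for counting error. The labelled cell type was checked against marker miRNAs. The 6 markers of a mesenchymal-like basal line (miR-100-5p, miR-125b-5p, miR-221-3p, miR-222-3p, miR-21-5p and miR-22-3p) together held 53.2% of counts with bait and 60.0% without. Most of these 556777 and 161957 counts came from miR-100-5p (310370 with bait and 122128 without) and miR-21-5p (174986 and 26251). miR-22-3p had 1553 and 288 counts, so the shares mainly describe the abundant members. The 6 epithelial markers held 0.0181% and 0.0111%, or 190 counts with bait and 30 without. Most of these were miR-200b-3p, with 144 and 28 counts. miR-200a-3p had 18 and 1 counts, miR-200c-3p 20 and 1, and miR-429 8 and 0. miR-141-3p and miR-205-5p were at 0 in both libraries. The 7 blood cell markers held 0.0432% and 0.0864%.

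miR-210-3p had 268 counts with bait, or 256 RPM (the count scaled to a library total of 1000000), with an interval of 226 to 288. Without bait it had 14 counts, or 51.9 RPM (28.4 to 87.1). The level was low in both libraries. It was the 88th most abundant of 651 names with counts in the bait library, with 0.0256% of all counts. In the no-bait library it ranked 159th of 476 with 0.00519%, level with the other names that had 14 counts.

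The bait over no-bait ratio of miR-210-3p was 4.93, with an interval of 2.89 to 9.14. On the log2 scale this is 2.30 (1.53 to 3.19). The width of the interval comes mostly from the 14 counts without bait. Names with 30 or more counts over both libraries were tested. A call of higher needed a ratio of 2 or more and an interval above 1, and a call of lower a ratio of 0.5 or less and an interval below 1. miR-210-3p was called higher, and its whole interval lay above 2. Higher calls were common: 91 of the 231 tested miRNAs, 39.4%, were higher, and 62, or 26.8%, were lower. The interval lay beyond 2-fold on the higher side for 64 of them, 27.7%. With DESeq2 size factors the split was 114 higher and 44 lower. The median ratio of all tested miRNAs was 1.46, a log2 value of 0.55. Among the 231 ratios that of miR-210-3p ranked 43rd from the top. The call is thus shared with a large part of the tested miRNAs.

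**Figure D1:**
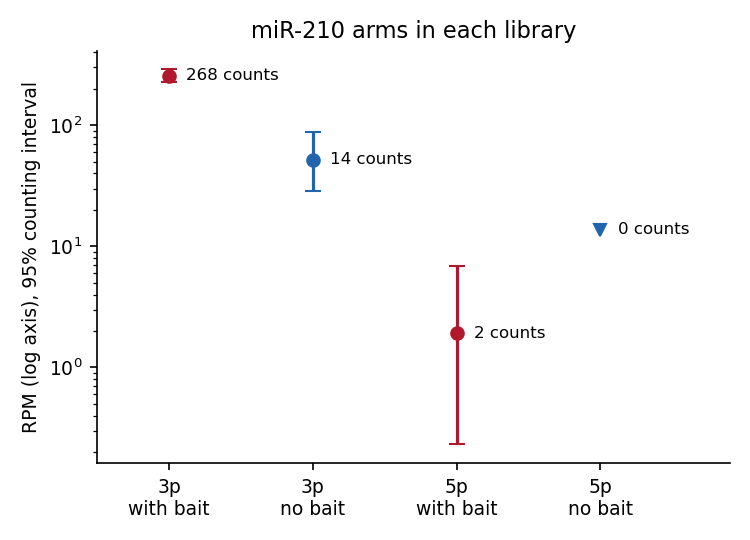
Level of the miR-210 arms in each library in RPM on a log axis, with points for the measured value, bars for the exact 95% counting interval and the count beside each point. The triangle for the 5p arm without bait is the upper limit of 13.7 RPM, since it had 0 counts; the 3p intervals of 226 to 288 RPM and 28.4 to 87.1 RPM do not overlap.

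miR-210-3p passed the count filter through the bait library, since its 14 no-bait counts alone would not have reached 30. In all, 116 of the tested miRNAs had fewer than 30 no-bait counts, and of these 65 were higher and 13 lower. Of the 115 tested miRNAs with at least 30 no-bait counts, 26 were higher and 49 lower. The filter on summed counts favours names that are high in the deeper library, so these counts are a description. At like abundance, with summed RPM within 2-fold of the 308 RPM of miR-210-3p, there were 54 other tested miRNAs. Of these 17 were higher, 18 lower and 19 neither, with a median ratio of 1.17. Their ratios ran from 0.0127 to 150, and 6 exceeded that of miR-210-3p.

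The miRNAs next to it in the bait library had ratios on both sides of 1. Just above it by bait count stood miR-423-5p with 301 counts, which had 1391 without bait and a ratio of 0.0557 (0.0490 to 0.0632). miR-125b-1-3p, the other arm of a hairpin that makes miR-125b, had 283 and 123 counts and a ratio of 0.593. miR-584-5p had 272 and 162 counts and was lower at 0.432. Just below it, miR-143-3p, a miRNA of smooth muscle and stroma, had 251 and 82 counts and a ratio of 0.788. The next names down were miR-24-2-5p and miR-484. A bait count near 268 therefore went with ratios from 0.0557 to 4.95 among these 6 neighbours.

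By Euclidean distance in log2 RPM over the 2 libraries, 5 miRNAs lay nearest to miR-210-3p. miR-24-2-5p, a passenger arm, was closest at a distance of 0.147, with 250 bait counts, 13 no-bait counts and a ratio of 4.95 (2.84 to 9.43). miR-484, whose hairpin is made without Drosha, had 246 and 15 counts and a ratio of 4.22 (2.51 to 7.66). miR-769-5p had 212 and 16 counts and a ratio of 3.41. miR-19b-3p, of the miR-17-92 cluster, had 201 and 11 counts and a ratio of 4.71. miR-149-5p had 180 and 12 counts and a ratio of 3.86. All 5 were higher by the same rule, against 39.4% of the 231 tested miRNAs. Each reached the count filter only through the bait library. Since the distance uses both levels, their like ratios follow from the choice.

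**Figure D2:**
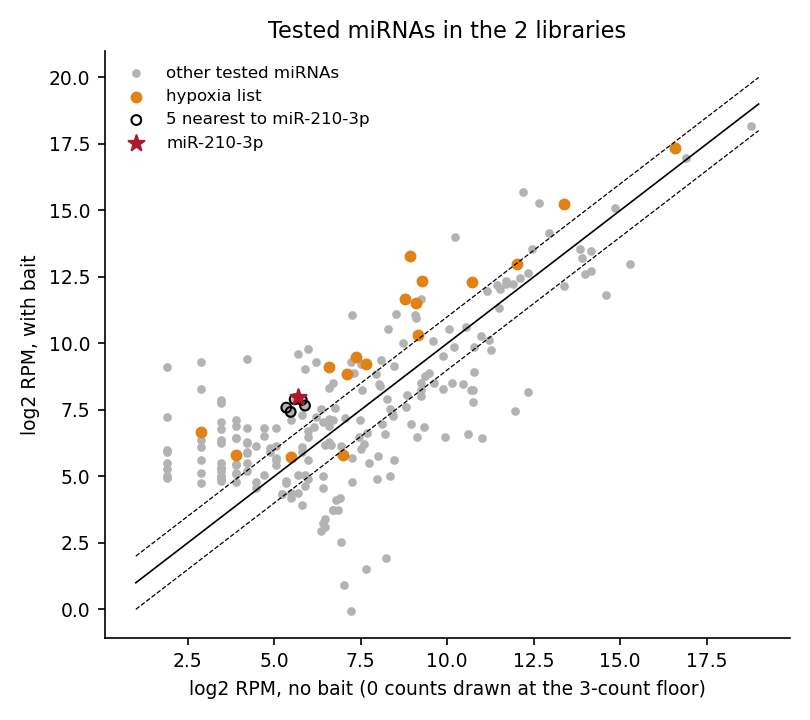
Levels of the 231 tested miRNAs as log2 RPM without bait (x axis, 0 counts drawn at 3 counts) and with bait (y axis); the solid line marks equal levels and the dashed lines 2-fold differences. The star, miR-210-3p at 51.9 and 256 RPM, lies above the upper dashed line beside its 5 nearest miRNAs (open circles), and 13 of the 17 tested miRNAs of the hypoxia list (orange) were called higher, against 39.4% of all tested miRNAs.

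miR-210-5p, the passenger arm, was at the limit of detection. It had 2 counts with bait, 1.91 RPM (0.231 to 6.90), a count that 78 names shared in that library. Without bait it had 0 counts, which allows up to 11.1 RPM at 3 counts of the total (exact upper limit 13.7 RPM). At the bait level, 0.515 counts would have been seen at the depth of the no-bait library. A difference of this arm between the libraries was not detectable at this depth, and no ratio is given, because both libraries were at or under the 3 counts used as a floor.

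The authors' deposited table nevertheless gives miR-210-5p a log2 fold change of 7.58, with a p-value of 1. That value follows from 0 RPM being replaced by 0.01 RPM, as recomputed from the deposited RPM. In the authors' deposited table miR-210-3p has a log2 fold change of 2.30 and a p-value of 0.00149, with the kind of test not stated. That table ranks 285 names above miR-210-3p by fold change, and 239 of these were at 0 without bait. An order by fold change in that table thus places names with a single library's counts ahead of miR-210-3p, and the 5p arm ahead of the 3p arm.

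Within the hairpin the 3p arm made up nearly all counts. With bait the 5p arm held 0.741% of the 270 counts (0.0898% to 2.65%), or 134 counts of the 3p arm for each of the 5p arm. Without bait it held 0 of 14 counts, which allows a share of up to 21.4% at 3 counts, and 0.104 counts would have been seen at the bait share. Whether the arms moved differently could not be seen at this depth. The share with bait was ordinary: in 141 other hairpins with at least 30 counts over both libraries and at least 1 with bait, the less abundant arm held a median of 0.840% with bait. The share was smaller than that of miR-210 in 68 of them and larger in 73. The 3p arm was the major one in 64 of the 141.

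**Figure D3:**
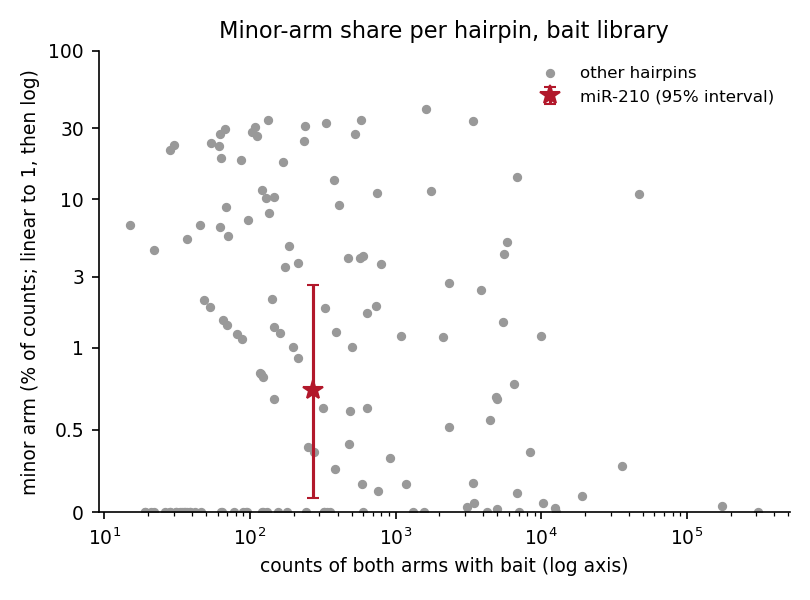
Share of the less abundant arm in the counts of each hairpin in the bait library (y axis in percent, linear up to 1 and logarithmic above) against the counts of both arms (x axis, log). miR-210 (star, with its exact 95% interval of 0.0898% to 2.65%) lies among the 141 other hairpins, whose median was 0.840%.

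Of other miRNAs recalled as changed by hypoxia or as targeting HIF1A, the oxygen-regulated subunit of hypoxia-inducible factor, 24 were listed and 17 were tested. Of the 17, 13 were higher, 1 was lower and 3 were neither, with a median log2 ratio of 1.87. Over all 231 tested miRNAs, 39.4% were higher and 26.8% lower, with a median of 0.55. The list was drawn up with earlier results of these libraries known and holds several members of single families, so it is a description and supports nothing about miR-210. Listed miRNAs with a larger ratio than miR-210-3p numbered 6, so it was not at the edge of the list.

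miR-23a-3p, from a cluster with miR-27a and miR-24-2, had the largest ratio, 20.2 (17.0 to 24.1), with 10330 counts with bait and 132 without. Its paralog miR-23b-3p was 7.33-fold higher, and miR-27a-3p 3.01-fold. miR-24-3p, the mature arm opposite miR-24-2-5p, had a ratio of 1.98 (1.86 to 2.11) and passed neither rule. The 2 arms from that hairpin therefore differed in ratio, although miR-24-3p also comes from a second hairpin.

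Of 5 listed members of the miR-17-92 cluster, which MYC drives, and its paralogous clusters, 4 were tested and all 4 were higher. The fifth, miR-20b-5p, had 3 counts with bait and 0 without and was not tested. Among all 231 tested miRNAs 39.4% were higher, and miR-17-5p and miR-18a-5p reached the count filter only through the bait library. Cluster members off the list were not counted. Among those, miR-19b-3p, miR-19a-3p (log2 ratio 2.99) and miR-106b-5p (6.40) were higher, each reaching the count filter only through the bait library. miR-92a-3p (log2 ratio 0.07), miR-25-3p (-0.29) and miR-106b-3p (-0.35) were neither, and miR-25-5p (-6.13) was lower. miR-17-5p had 576 and 26 counts and a ratio of 5.71 (3.85 to 8.81), and miR-20a-5p 757 and 44 counts and 4.43 (3.27 to 6.15). miR-18a-5p, which targets HIF1A, had 107 and 2 counts and a ratio of 13.8 (3.72 to 115). miR-93-5p, from a paralogous cluster, was 3.00-fold higher. Their intervals overlap that of miR-210-3p.

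Of the listed miR-181 family members, miR-181a-5p was 8.32-fold and miR-181b-5p 5.35-fold higher. Off the list, miR-181d-5p (log2 ratio 1.01) and miR-181a-3p (-0.30) were neither, and miR-181a-2-3p (-2.67) was lower. miR-26a-5p was 3.65-fold and miR-26b-5p 3.33-fold higher. miR-30b-5p had 58 and 4 counts and a ratio of 3.73 (1.38 to 14.2). miR-103a-3p, from introns of pantothenate kinase genes, was 2.25-fold higher (1.90 to 2.67), while its near-identical relative miR-107 had a ratio of 1.18 (0.625 to 2.42).

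miR-21-5p, an abundant oncogenic miRNA, had a ratio of 1.72 (1.69 to 1.74) and passed neither rule. miR-199a-5p, which targets HIF1A and is typical of stromal cells, was the lower member, with 58 and 34 counts and a ratio of 0.439 (0.283 to 0.692). DESeq2 size factors raised every ratio 1.34-fold, which ended that call and made miR-21-5p and miR-24-3p higher. Higher members of the list then numbered 15, and 14 with TMM factors. Among the members below 30 counts, miR-155-5p had 6 counts in each library. miR-373-3p, miR-181c-5p and miR-519c-3p had 0 counts in both.

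**Figure D4:**
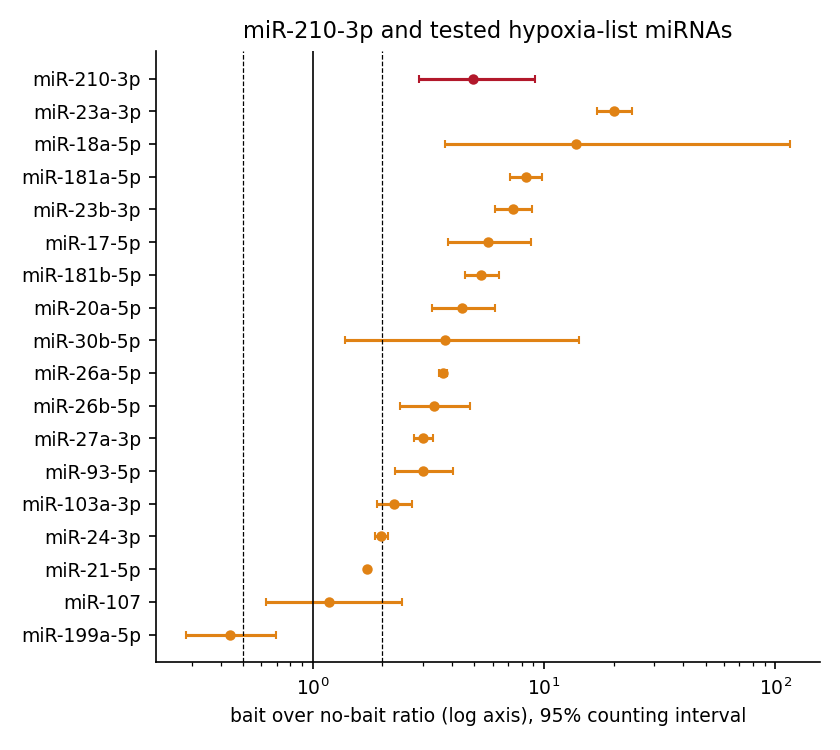
Bait over no-bait ratio (log axis) of miR-210-3p (top, red) and the 17 tested miRNAs of the hypoxia list (orange), with exact 95% counting intervals; the solid line marks 1 and the dashed lines 0.5 and 2. miR-210-3p at 4.93 lies inside the range of the list, from 0.439 for miR-199a-5p to 20.2 for miR-23a-3p.

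miR-210-3p is GC-rich beside most tested miRNAs. Of the 203 tested miRNAs with a RefSeq sequence, 15 had a higher GC content than its 63.6%, and the median was 47.8%. Over these 203, Spearman's rho between GC content and log2 ratio was -0.30 (Pearson's r -0.31), given as a description across miRNAs that share the same 2 libraries. Among the 26 other miRNAs with at least its GC content, 6 were higher, 10 lower and 10 neither, with a median ratio of 0.682. Below its GC content, 74 of 176 were higher and 41 lower, with a median ratio of 1.70. Only 3 of the 26 had a larger ratio than miR-210-3p. They were miR-345-5p with 323 and 2 counts (41.6, 11.4 to 345), miR-425-3p with 81 and 3 counts (6.95, 2.30 to 34.4) and miR-324-3p with 139 and 0 counts. With 3 counts in place of 0 the ratio of miR-324-3p was 11.9, and its interval, computed from the 0 counts, starts at 9.58. All 3 are named on the strength of values already seen.

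**Figure D5:**
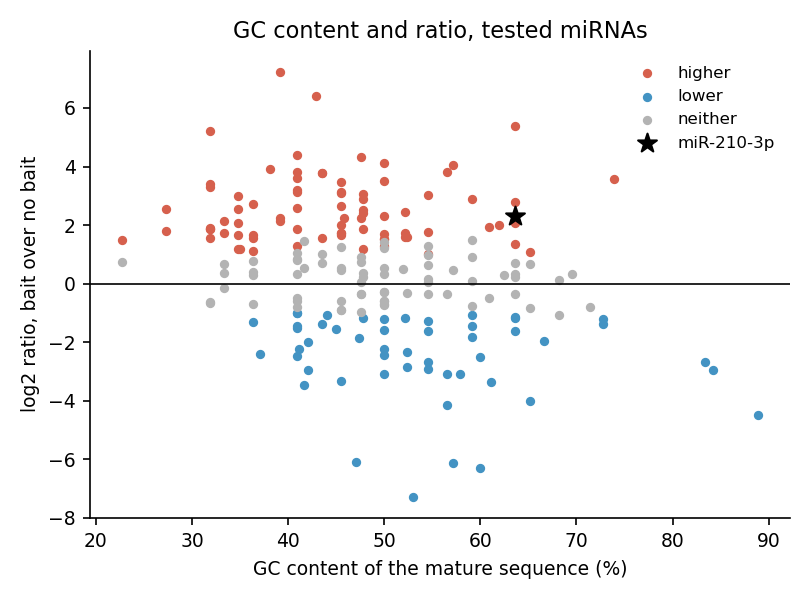
GC content of the mature sequence in percent (x axis) against the log2 bait over no-bait ratio (y axis) for the 203 tested miRNAs with a RefSeq sequence, coloured by call. miR-210-3p (star, 63.6% GC, log2 ratio 2.30) lies above zero in a GC range where 6 of the 26 others were higher and 10 lower.

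The annotated MACC1-AS1 transcript was searched for seed matches to both arms. The gene (ENSG00000228598.1) lies at chr7:20141916-20153531 on the plus strand of GRCh38, and its transcript ENST00000439285.1 in GENCODE version 29 has 639 bases in 4 exons. The labels do not say whether the bait had this isoform, and the MS2 part was not searched. For miR-210-3p the transcript held 1 match to bases 2 to 8 of the miRNA, ACGCACA, at bases 24 to 30. It lies in exon 1 at chr7:20141939-20141945. The stretch around it (chr7:20141929-20141955, plus strand, bases 14 to 40 of the transcript) is shown with the match in capitals, to be read against the seed of miR-210-3p printed above.
MACC1-AS1 around the match: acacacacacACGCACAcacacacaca

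The match sits in a run of alternating A and C that a single G interrupts. The alternative 7-base match, to bases 2 to 7 followed by A (CGCACAA), was not found. For miR-210-5p neither CAGGGGC nor AGGGGCA nor their shared 6 bases, AGGGGC, was found. Among 9095 long non-coding transcripts of GENCODE with 576 to 702 bases, 1.43% held ACGCACA and 6.47% held CAGGGGC, on the transcript strand alone. A match describes letters and does not show binding.

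A 7-base match of either kind was present for 10 of the 203 tested miRNAs with a sequence, miR-210-3p included. Of these 10, 7 were higher and 1 lower, with a median log2 ratio of 1.80. Of the 193 without one, 74 were higher and 50 lower, with a median of 0.52. No test of this difference was made, and the 10 include the related miR-26a-5p and miR-26b-5p, which share 1 match at base 102. The other higher ones were miR-345-5p, miR-185-5p (2.87, 1.69 to 5.24), miR-18a-5p and miR-193b-3p. miR-193b-3p had 87 counts with bait and 0 without. Like miR-210-3p, these other higher ones reached the count filter only through the bait library. So did miR-200b-3p, which was not called. The filter, which the 193 without a match also passed, favours names that are high in the deeper library. Whether the match has a part in the 7 of 10 was not tested. A match also went with other outcomes: miR-199a-5p, with a match at base 591, was lower, and miR-143-3p and miR-200b-3p passed neither rule.

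Pairing along the whole miRNA was computed as the best duplex between each mature sequence and the transcript, which ignores how the transcript folds on itself. For miR-210-3p the best duplex had an energy of -21.0 kcal/mol and 17 base pairs, and covered bases 20 to 55 of the transcript (chr7:20141935-20141970). It is shown because the seed does not pair with its 7-base match there: 6 of the 7 seed bases pair further downstream, and 3 bases of the match pair with other bases of the miRNA. Capitals mark paired bases in both strands, each written 5′ to 3′.
miR-210-3p in the duplex: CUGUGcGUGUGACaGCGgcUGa
MACC1-AS1 in the duplex: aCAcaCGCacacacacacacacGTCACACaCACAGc

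Of the 203 tested miRNAs 7 had a lower, that is more stable, best duplex, and the median was -15.3 kcal/mol. Of the 17 others within 2.5 percentage points of its GC content 0 had a lower energy, with a median of -15.6 kcal/mol. Over the 203, energy had a Spearman's rho of 0.24 with the log2 ratio, so that more stable duplexes tended to have lower ratios. It also had a rho of -0.42 with GC content, and the part of GC content in the first relation was not tested. The miRNA with the lowest energy, miR-574-5p, pairs with the same repeat (-33.9 kcal/mol, bases 19 to 40). Its 2098 bait and 149 no-bait counts give a ratio of 3.63 (3.07 to 4.31), and it was named after its value was seen. miR-4455, whose best duplex covers bases 15 to 28, had 48 and 58 counts and was lower at 0.213 (0.142 to 0.318). miR-1180-3p, which has the GC content of miR-210-3p and pairs with the same bases 15 to 28, had a ratio of 1.26 (0.975 to 1.65). The best duplexes of 3 further tested miRNAs overlap bases 20 to 55, and all 3 were higher. miR-138-5p (bases 41 to 59) had a ratio of 14.2 (8.83 to 24.5), and miR-362-5p (bases 50 to 82) had 37 and 2 counts and a ratio of 4.76 (1.23 to 40.8). miR-324-5p (bases 54 to 81) had 30 and 0 counts, with an interval that starts at 1.97. Of the 6 other miRNAs whose best duplex overlaps this stretch, 4 were thus higher, 1 lower and 1 neither, and no test of this was made. Among all 203 tested miRNAs with a sequence, 39.9% were higher and 25.1% lower. Of the higher ones on this stretch, miR-138-5p (17 no-bait counts), miR-362-5p and miR-324-5p reached the count filter only through the bait library. The best duplex of miR-210-5p had -11.5 kcal/mol and lay elsewhere, at bases 245 to 273.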

How the data were processed

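The authors deposited, per library, a whole-number count and an RPM value for 2588 mature miRNA names; the RPM equalled count over library total within 0.00994 RPM. BWA is named, without a version, in the submitters' processing notes. Not given in the sources used here are the miRNA reference, build, trimming and treatment of multi-mapping reads. A deposited table of the authors' comparison holds a log2 fold change and a p-value per name.

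Counts were scaled by library totals. Ratios have exact conditional binomial intervals and shares Clopper-Pearson intervals (scipy 1.17.1). Only the ratio intervals and calls were tested, on simulated independent Poisson counts. Such counts cannot show how the intervals cover reads that are not independent or differences between preparations. A name at 0 in 1 library was set to a floor of 3 counts there. The calling rule is in the report. Energies came from ViennaRNA 2.7.2 (RNAfold, RNAduplex). Of the 231 tested names, 28 had no RefSeq sequence and were left out of sequence comparisons. Alternatives were edgeR 4.0.16 TMM factors, DESeq2 1.42.0 size factors, totals without the most abundant miRNAs, other count minimums, a stricter interval rule and the deposited RPM. Named miRNAs were both arms, the 5 nearest by level, 3 neighbours by bait rank on each side, the tested hypoxia list, names sharing a seed and the markers; others are named as chosen later or by their seed match. The members and lists were chosen with earlier results of these data known.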

Additional observations from a re-analysis of the deposited data

How the results depend on the processing

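miR-210-3p was called higher under every alternative scaling, with ratios of 5.49 (TMM), 6.60 (DESeq2 size factors), 4.51 (totals without the 5 most abundant miRNAs) and 3.83 (totals without miR-100-5p), and its lowest interval bound was 2.25. The deposited RPM gave a ratio of 4.93, with no interval and so no call. These scalings moved the log2 ratio of every miRNA alike, by 0.15, 0.42, -0.13 and -0.36. The share of miR-210-5p in the hairpin was 0.741% with the deposited RPM. The arm had no ratio under any setting, being at or under the floor in both libraries. At 100 counts or more, 59 of 146 tested miRNAs were higher and 37 lower, and no count filter gave 100 lower of 715. The median log2 ratio of the hypoxia list was 2.02 with TMM, 2.29 with DESeq2 size factors, 1.74 without the 5 most abundant miRNAs, 1.51 without miR-100-5p, 1.74 and 2.01 at minimums of 10 and 100 counts, and 1.68 with no count filter. Its lower members numbered 0 with DESeq2 size factors, at 100 counts and with the interval bound beyond 2-fold, and 2 at 10 counts and with no filter, where miR-155-5p enters. Its higher members numbered 11 to 15. No paired analysis was possible because each group held 1 library, and none could be left out. The 14 no-bait counts of miR-210-3p set the precision of its ratio.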
